A study of Rattus norvegicus with 3 samples.

Results

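Mitochondrial ribosomal proteins are described here in 3 rat calf muscles. The members are all genes whose symbol starts with Mrpl (large subunit) or Mrps (small subunit) and which a RefSeq accession tied to a probe of the arrays. They came to 66 of the 15162 genes that could be named, 42 of the large and 24 of the small subunit, on 77 probes. The study measured messenger RNA of 12-week-old male rats with the strain background Wistar Honnover on 3 one-colour Agilent arrays. One array held the soleus 28 days after about 5 mm of the left sciatic nerve had been cut out. Another held the normal plantaris and the third the normal soleus, both labelled normal. The soleus is a slow postural muscle and the plantaris its faster neighbour in the calf. Each group is 1 array of whole muscle tissue from a number of animals not given in the sources used here, so no difference below has a replicate check and no p-value is given.

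The mitochondrial ribosome translates the few proteins that mitochondrial DNA encodes, all of them core subunits of the respiratory chain and ATP synthase. Its RNAs come from mitochondrial DNA, whereas every one of its proteins is encoded in the nucleus, made in the cytosol and imported. Some of these proteins have counterparts in bacterial ribosomes and others are found in mitochondria alone. Slow muscle is rich in mitochondria and depends on this supply.

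The values are the scanner's processed signal divided by the 75th percentile of the same array, taken without control spots, so a relative signal of 1 equals that percentile. Signals of members are compared between arrays for the same probe, not between members, since probes differ in brightness. Sums of marker signals, given below, weigh the brighter probes most. Differences are log2 folds, where -1 is a 2-fold lower signal, and the error after ± is the scanner software's own and covers measurement only. All 66 members were well above background on all 3 arrays, and no spot was saturated. All 10 listed muscle fibre markers were well above background on each array. Actn3, the fast fibre actinin, was at 9.59 and Myh7, the slow myosin, at -2.62 (both ± 0.20) on the plantaris array over normal soleus. The denervated array lies on another slide and scan than the other two, and in anything below the effects of denervation and of slide or scan cannot be told apart. Both comparisons share the normal soleus array.

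The promoters of the members are shown first. Whether motifs in them bear on the folds was not tested. RefSeq promoters (assembly GRCr8, 250 bases before to 50 after the start site) were at hand for 54 of the 66 members. Letters in capitals mark motifs, searched on both strands, of factors known to drive nuclear genes for mitochondria: the palindrome of NRF1, CCGGAAG for GABPA and other ETS factors, AAGATGGC for YY1 and AAGGTCA, the core site of the ERR receptors. The sequences belong to the member with the lowest fold after denervation in each subunit, among those with a promoter and with repeat spots that did not disagree, and to the member with the highest. Mrpl12 and Mrps18b had the lowest folds, Mrpl23 and Mrps14 the highest.
Mrpl12 promoter, chr10:106256496-106256795, + strand: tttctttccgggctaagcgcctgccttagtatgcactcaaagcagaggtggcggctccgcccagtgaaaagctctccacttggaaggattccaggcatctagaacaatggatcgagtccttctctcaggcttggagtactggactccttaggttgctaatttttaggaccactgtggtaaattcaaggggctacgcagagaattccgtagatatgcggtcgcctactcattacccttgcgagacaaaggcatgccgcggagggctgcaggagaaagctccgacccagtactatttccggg
Mrps18b promoter, chr20:2842756-2843055, + strand: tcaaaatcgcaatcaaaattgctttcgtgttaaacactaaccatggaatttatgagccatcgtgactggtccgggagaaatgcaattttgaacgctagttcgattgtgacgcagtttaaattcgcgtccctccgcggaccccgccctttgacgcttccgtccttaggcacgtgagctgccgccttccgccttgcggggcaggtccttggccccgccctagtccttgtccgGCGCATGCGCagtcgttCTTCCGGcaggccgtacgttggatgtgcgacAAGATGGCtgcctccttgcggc
Mrpl23 promoter, chr1:207116680-207116979, + strand: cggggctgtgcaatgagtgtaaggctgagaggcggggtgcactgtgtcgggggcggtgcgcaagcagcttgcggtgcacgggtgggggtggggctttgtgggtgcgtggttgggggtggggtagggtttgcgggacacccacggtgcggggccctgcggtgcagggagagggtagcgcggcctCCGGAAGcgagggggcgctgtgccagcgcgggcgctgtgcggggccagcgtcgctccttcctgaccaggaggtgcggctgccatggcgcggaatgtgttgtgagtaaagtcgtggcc
Mrps14 promoter, chr13:74962347-74962646, + strand: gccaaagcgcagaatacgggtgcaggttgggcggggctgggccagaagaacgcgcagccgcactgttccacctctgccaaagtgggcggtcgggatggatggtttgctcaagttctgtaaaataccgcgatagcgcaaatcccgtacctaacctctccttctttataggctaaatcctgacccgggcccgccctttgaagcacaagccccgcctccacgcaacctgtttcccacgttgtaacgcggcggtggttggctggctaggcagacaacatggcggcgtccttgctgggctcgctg

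The Mrps18b promoter held the NRF1 letters from -20 to -11, the ETS letters on the reverse strand from -3 to 4 and the YY1 letters from 29 to 36, counted from the start site, without overlapping one another. The Mrpl23 promoter held the ETS letters from -67 to -61. None of the 4 motifs was found in the windows of Mrpl12 and Mrps14. The ETS letters were in 19 of 54 members' promoters (35.2%), against 9.22% of all 27457 promoters and 16.4% of the 9189 promoters of genes measured in the denervation comparison. The YY1 letters were in 12 (22.2%), against 3.44% of all promoters and 4.84% of those of measured genes. The NRF1 letters were in 9 (16.7%), against 4.71% and 8.97%, and the ERR letters in 3 (5.56%), against 4.37% and 3.04%. With or without a motif, the median log2 fold of the members after denervation was below 0. Nearly any split would give this, since 63 of the 66 members were below 0. Members with the ETS letters had a median log2 fold of -0.47 and the 35 without them -0.63, and the same medians were -0.72 and -0.56 for YY1 and -0.55 and -0.61 for NRF1. For ERR they were -0.89 over 3 members, all of the small subunit, and -0.60 over the other 51. Split by subunit, the YY1 medians were -1.03 with (4) and -0.38 without (15) in the small subunit. In the large subunit they were -0.61 with (8) and -0.63 without (27). The NRF1 medians were -0.84 with (2) and -0.52 without (17) in the small and -0.55 (7) and -0.63 (28) in the large subunit.

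Denervated soleus was first set against normal soleus, a comparison that concerns muscle that has lost its nerve. Nearly every member had a lower signal in the denervated muscle, by a modest amount. In such bulk tissue, fewer muscle fibres and less RNA per fibre cannot be told apart. Of 66 members 63 had a log2 fold below 0, against 48.5% of the 11226 genes measured in that comparison, and 3 were above 0, against 51.5% of all genes. The median log2 fold of the members was -0.62, with quartiles of -0.91 and -0.38. Over all measured genes the median was 0.03, and the quartiles were -0.51 and 0.46. At least 1.5-fold lower were 37 members, against 22.9% of all genes, and at least 2-fold lower were 13, or 19.7%, against 13.5% of all genes. These counts depend on the scaling and were 22 (16.9% of all genes) and 5 (9.82% of all genes) in the authors' deposited value table. None was at least 1.5-fold higher, against 19.9% of all genes, or 2-fold higher, against 8.8%. In all, 57 members were lower by more than their own error (35.4% of all genes) and 1, Mrpl23, higher by more than it (36.1% of all genes).

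**Figure D1:**
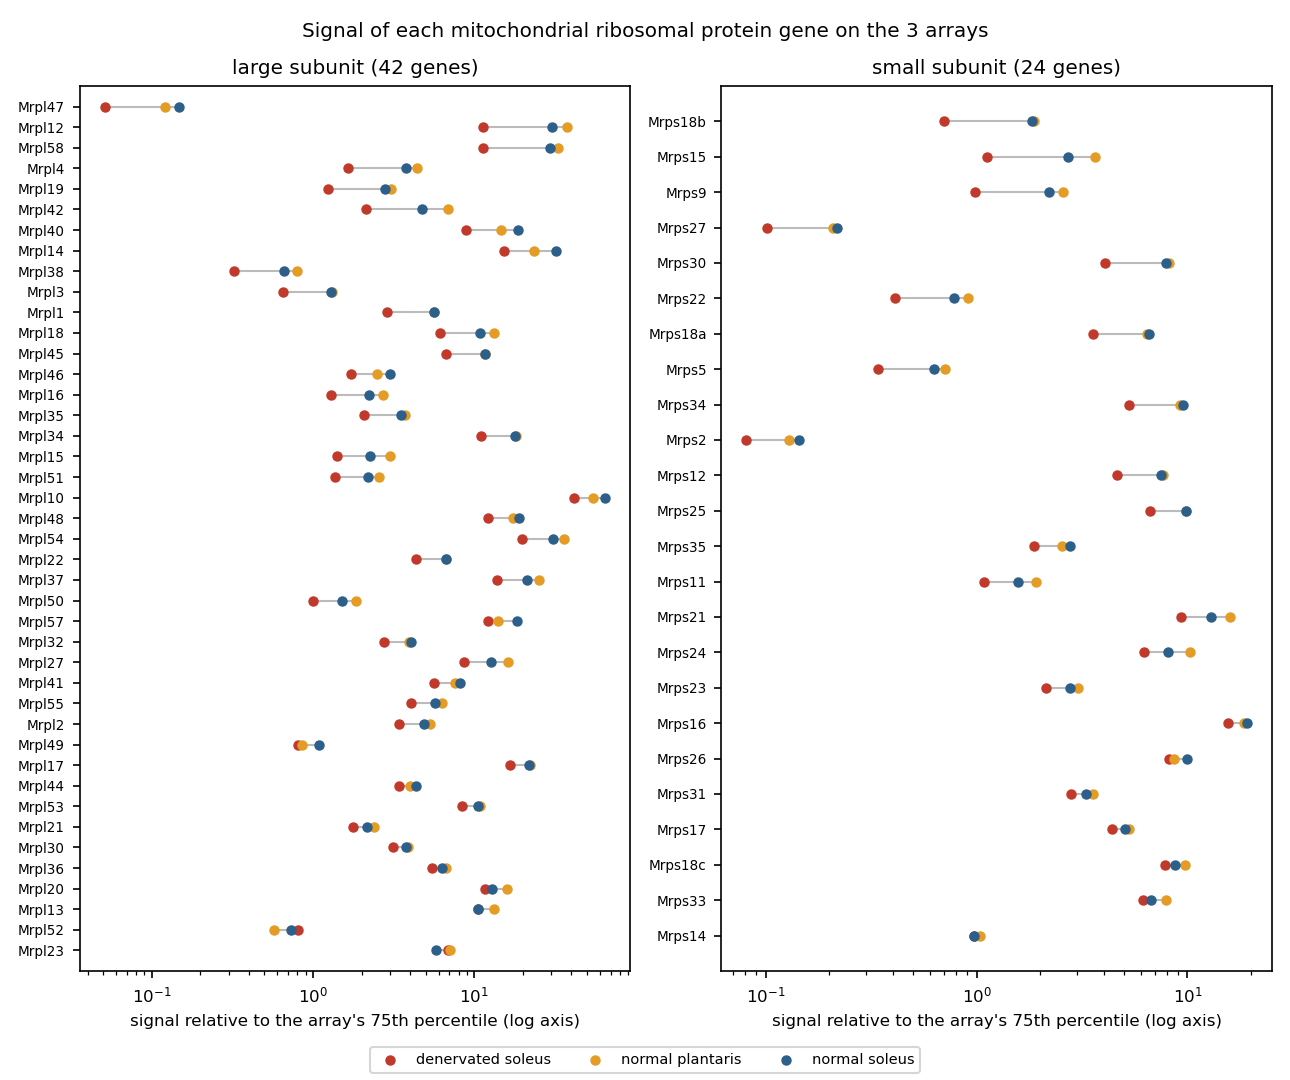
Each row is 1 gene, sorted by its fold after denervation, and the 3 points are its signals on the denervated soleus, normal plantaris and normal soleus arrays, relative to the 75th percentile of the array (log axis). The denervated signal is the lowest of the 3 in 63 of 66 rows, while the other 2 points of a row lie close together.

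Taken over the 3 muscles, 63 members had their lowest signal on the denervated array, against 40.5% of the 11601 genes that were well above background on at least 1 array. Of the members, 45 had the highest signal on the plantaris array, against 35.5% of those genes, and 20 on the normal soleus array, against 23.3%. Mrpl52 alone had its highest signal on the denervated array, against 41.2% of those genes. The plantaris and normal soleus signals mostly differed by less than the error, so the order of these 2 muscles is not settled for most members.

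Among large subunit members, Mrpl12, the stalk protein that helps recruit translation factors, had a relative signal of 11.3 on the denervated array, 37.4 on plantaris and 30.5 on normal soleus. This is a 2.69-fold lower signal after denervation (log2 fold -1.43 ± 0.20). Mrpl10, which anchors Mrpl12 at the base of the stalk, had 41.2 on the denervated array, 54.6 on plantaris and 64.7 on normal soleus (-0.65 ± 0.20). The fold of Mrpl12 was thus larger than that of its partner by more than both errors. Mrpl1, which forms the stalk on the opposite side, had 2.86, 5.64 and 5.62 on the same arrays (-0.98 ± 0.20).

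Mrpl58 is a release factor relative that in mammals is built into the large subunit and frees stalled chains. Its signal was 11.4 on the denervated array, 32.9 on plantaris and 29.6 on normal soleus (-1.38 ± 0.20). It sits in the central protuberance, the ridge that faces the small subunit, as do the mitochondria-specific Mrpl38, Mrpl40, Mrpl46 and Mrpl48. This grouping was made after values were seen. It is not a full list of the ridge's proteins and gives no result for the ridge as a whole. Mrpl40 had 8.85 on the denervated array, 14.6 on plantaris and 18.6 on normal soleus (-1.07 ± 0.20), and its second probe gave -0.96. Mrpl38 had 0.325 on the denervated array, 0.791 on plantaris and 0.665 on normal soleus (-1.03 ± 0.21). Mrpl46 and Mrpl48 were lower by less, at -0.79 and -0.64.

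The proteins around the exit tunnel, where the new chain leaves the ribosome, spanned the whole range of the members. Mrpl4, which lines the tunnel, had 1.65 on the denervated array, 4.43 on plantaris and 3.77 on normal soleus (-1.19 ± 0.20). Mrpl47, the counterpart of bacterial L29 at the tunnel mouth, had the lowest fold of all members at -1.54 ± 0.26, from relative signals of 0.0511, 0.12 and 0.148. That value is uncertain in size, because the 2 repeat spots on the normal soleus array read 0.0959 and 0.229, which gives folds of -1.004 and -2.07. Mrpl45, which holds the tunnel mouth to the inner membrane, and Mrpl22, which lines the tunnel, were at -0.82 and -0.61. Mrpl23, at the tunnel mouth too, had 6.85 on the denervated array, 7.11 on plantaris and 5.82 on normal soleus and was the highest member at 0.24 ± 0.20.

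The other large subunit members past 2-fold were Mrpl19 and Mrpl14, counterparts of bacterial proteins at the face between the subunits, and the mitochondria-specific Mrpl42. Mrpl19 had 1.24 on the denervated array, 3.03 on plantaris and 2.81 on normal soleus (-1.17 ± 0.20). Mrpl14, the docking site of the assembly factor Malsu1, had 15.2 on the denervated array, 23.3 on plantaris and 31.9 on normal soleus (-1.07 ± 0.20). Mrpl42 had 2.12 on the denervated array, 6.87 on plantaris and 4.73 on normal soleus (-1.16 ± 0.20), the largest gap between the 2 normal muscles of any member. Just short of 2-fold was Mrpl3, near the catalytic centre, at -0.99 ± 0.20. At the other end, Mrpl13 was at 0.01 and Mrpl52 at 0.15, both within their error of 0, with Mrpl20 at -0.14, Mrpl36 at -0.20 and Mrpl30 at -0.25. A second Mrpl30 probe, above background on neither array, read 0.63.

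All 24 small subunit members had folds below 0, against 48.5% of all genes, though that of Mrps14 was -0.00 in value. Mrps18b had 0.7 on the denervated array, 1.88 on plantaris and 1.84 on normal soleus (-1.39 ± 0.20). Mrps15, an early binder of the small ribosomal RNA in bacteria, had 1.12 on the denervated array, 3.66 on plantaris and 2.72 on normal soleus (-1.28 ± 0.20). Mrps9, whose bacterial counterpart reaches toward the transfer RNA in the P site, had 0.986 on the denervated array, 2.57 on plantaris and 2.2 on normal soleus (-1.16 ± 0.20). In all 3 the plantaris signal was at or above that of normal soleus, and the denervated signal well below both. Mrps27, an RNA-binding protein with pentatricopeptide repeats, had 0.102, 0.207 and 0.217 on the denervated, plantaris and normal soleus arrays (-1.09 ± 0.22). These were the 4 small subunit members past 2-fold. Next came Mrps30, which structures place in the large subunit, with 4.05 on the denervated array, 8.22 on plantaris and 7.94 on normal soleus (-0.97 ± 0.20), and the mitochondria-specific Mrps22 with 0.412, 0.913 and 0.778 (-0.92 ± 0.21). Mrps12, at the decoding centre, was at -0.69 and Mrps2 at -0.83 ± 0.23.

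The small subunit members with the least difference were Mrps14, with 0.969 on the denervated array, 1.03 on plantaris and 0.97 on normal soleus, Mrps33 at -0.12, Mrps18c at -0.16, Mrps17 at -0.20 and Mrps31 at -0.24. The 3 Mrps18 paralogs, which share an ancestor in 1 bacterial protein, differed from each other after denervation. Mrps18b was at -1.39, Mrps18a at -0.89 and Mrps18c at -0.16, each ± 0.20. Of these, Mrps18c holds the place of the bacterial protein, and Mrps18a was found in the large subunit when structures were solved.

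Between these ends lay a broad middle. Large subunit members not named above ran from -0.84 for Mrpl18, of the central protuberance, to -0.28 for Mrpl21, and small subunit members from -0.88 for Mrps5 to -0.28 for Mrps26. Mrpl18 had 6.09 on the denervated array, 13.2 on plantaris and 10.9 on normal soleus, and Mrpl21 had 1.77, 2.39 and 2.16. Mrps5 had 0.339 on the denervated array, 0.705 on plantaris and 0.626 on normal soleus, and Mrps26 had 8.15, 8.63 and 9.92. In all 4 the denervated signal was the lowest, and the gap between the 2 normal muscles was the smaller one except in Mrps26, where plantaris stood with denervated soleus.

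After denervation the median log2 fold was -0.63 for the 42 large subunit members and -0.56 for the 24 small subunit members, a difference of -0.07 that was not tested. Lower at least 2-fold were 9 of 42 large (21.4%) and 4 of 24 small subunit members (16.7%), against 13.5% of all genes. Lower at least 1.5-fold were 26 large (61.9%) and 11 small subunit members (45.8%), against 22.9% of all genes. The quartiles were -0.94 and -0.45 for the large subunit and -0.89 and -0.29 for the small. Moving Mrps30 and Mrps18a to the large subunit, where structures place them, gave medians of -0.64 and -0.54, and quantile normalization turned the difference between the subunits to 0.05. Members with a bacterial counterpart (36) and those specific to mitochondria (30) had medians of -0.63 and -0.62. Split by subunit, the same medians were -0.67 (24) and -0.62 (18) in the large subunit. In the small subunit they were -0.50 (12) and -0.71 (12), a gap the other way. Neither gap was tested.

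**Figure D2:**
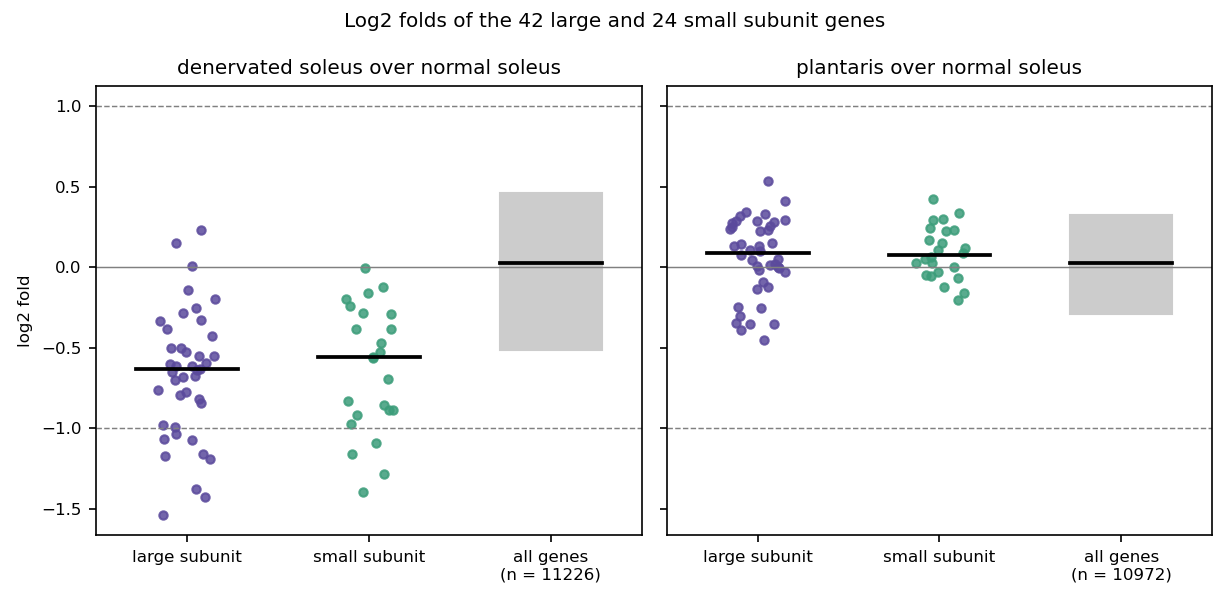
Log2 folds of the large and small subunit members, 1 point per gene with the median as a black line, for denervated over normal soleus (left) and plantaris over normal soleus (right). Grey boxes span the quartiles of all genes measured, dashed lines are 2-fold, and the members lie mostly below 0 on the left and around 0 on the right.

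Plantaris was set against normal soleus to compare a faster with a slower muscle, and here the members hardly differed. All 66 were within 1.5-fold, against 74.3% of the 10972 genes measured. None was thus at least 1.5-fold lower (12.7% of all genes) or higher (13% of all genes), nor at least 2-fold lower (6.12%) or higher (5.73%). Below 0 were 21 members, against 47.7% of all genes, and above 0 were 45, against 52.3%. The median log2 fold was 0.08, with members from -0.45 to 0.54, and the median of all genes was 0.02. By more than their own error 22 members were higher, against 31% of all genes, and 8 lower, against 27.8%, and 36 lay within it. The large subunit had a median of 0.09 and the small subunit 0.08.

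Highest in plantaris over normal soleus were Mrpl42 (0.54 ± 0.20), Mrps15 (0.43), Mrpl15 (0.41), Mrpl27 (0.35) and Mrps24 (0.34). Lowest were Mrpl14 (-0.45 ± 0.20), the small Mrpl57 (-0.39), Mrpl52 (-0.35), Mrpl40 (-0.35) and Mrpl49 (-0.34), all of the large subunit. The second probe of Mrpl40 read -0.06 here. The highest small subunit members after Mrps15 and Mrps24 were Mrps21 (0.30, and 0.06 on its second probe), Mrps11 (0.29) and Mrps33 (0.24). The lowest were Mrps26 (-0.20), Mrps2 (-0.16), Mrps35 (-0.12), Mrps27 (-0.07) and Mrps16 (-0.05), all within their error of 0. Mrpl42, Mrps15, Mrpl15 and Mrpl14 were more than 2 times their error from 0, on both sides of it. Quantile normalization put Mrpl14 just past 1.5-fold at -0.59, and scaling on the median did so for Mrpl42 at 0.60.

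Subunits named outside the Mrpl and Mrps series were measured for 5 genes. Of these 4 had folds below 0 after denervation, against 48.5% of all genes (list median -0.30). Ptcd3, an RNA-binding small subunit protein, had 4.36 on the denervated array, 9.94 on plantaris and 9.09 on normal soleus (-1.06 ± 0.20), and Chchd1 had 7.57, 17.8 and 12.5 (-0.72 ± 0.20). Dap3 and Aurkaip1, of the small subunit too, were at -0.30 and -0.29. Gadd45gip1, a large subunit protein, was at 0.17 after denervation and 0.74 in plantaris over normal soleus, with 6.31, 9.37 and 5.62 on the denervated, plantaris and normal soleus arrays.

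Genes that work with the mitochondrial ribosome were lower to differing degrees in denervated soleus. All 11 measured translation factors had folds below 0, against 48.5% of all genes, and their median was -0.68. At least 1.5-fold lower were 6 (54.5%), against 22.9% of all genes, and at least 2-fold lower was 1 (9.09%), against 13.5%. The lowest were Tufm, the elongation factor that delivers transfer RNAs (-1.21 ± 0.20), Guf1, a GTPase related to bacterial LepA (-0.87), and the translocation factor Gfm1 (-0.82). The highest were the release factor Mtrf1l (-0.18), the recycling factor Mrrf (-0.29) and Rmnd1 (-0.36). In plantaris over normal soleus their median was 0.11, with Mtrfr (-0.53), Mtif3 (-0.47) and Oxa1l (-0.11) lowest and Guf1 (0.50), Gfm1 (0.44) and Mtrf1l (0.36) highest.

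Of 25 genes for ribosome assembly and RNA modification 22 (88%) had folds below 0 after denervation, against 48.5% of all genes (list median -0.32). At least 1.5-fold lower were 8 (32%), against 22.9% of all genes, and at least 2-fold lower 3 (12%), against 13.5%. Lowest were Lrpprc, which stabilizes mitochondrial messenger RNAs (-1.24), and the ribosomal RNA methyltransferases Mrm3 (-1.17) and Nsun4 (-1.11). Tfb1m, which methylates the small ribosomal RNA, was at 0.05 and Mterf4, the partner of Nsun4, at 0.33, so the 2 partners stood apart. Mettl15 was above background on 1 of these 2 arrays only, and its bound of 0.85 lies within its error of 1.13. In plantaris over normal soleus the list had a median of 0.02, from Ngrn at -0.86 and Nsun4 at -0.41 to Slirp at 0.42 and Ybey at 0.72.

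None of 13 genes for transcription and copying of mitochondrial DNA was at least 2-fold lower after denervation, against 13.5% of all genes (list median -0.20). At least 1.5-fold lower were 3, or 23.1%, close to the 22.9% of all genes. The 3 were the RNA polymerase Polrmt (-0.95 ± 0.20), the DNA-packaging factor Tfam (-0.62) and the transcription factor Tfb2m (-0.59). Of the nuclear factors whose motifs were searched, Nrf1 was at -0.19 ± 0.21, Gabpa at 0.22 ± 0.20 and Yy1 at 0.01 ± 0.21, and the ERR receptors were not on the list. Highest was Mterf1 at 0.47, then Mgme1 at 0.25. In plantaris over normal soleus the list had a median of 0.07, with Polg2 (-0.74) and Tefm (-0.36) lowest and Mgme1 (0.84) and Yy1 (0.55) highest.

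**Figure D3:**
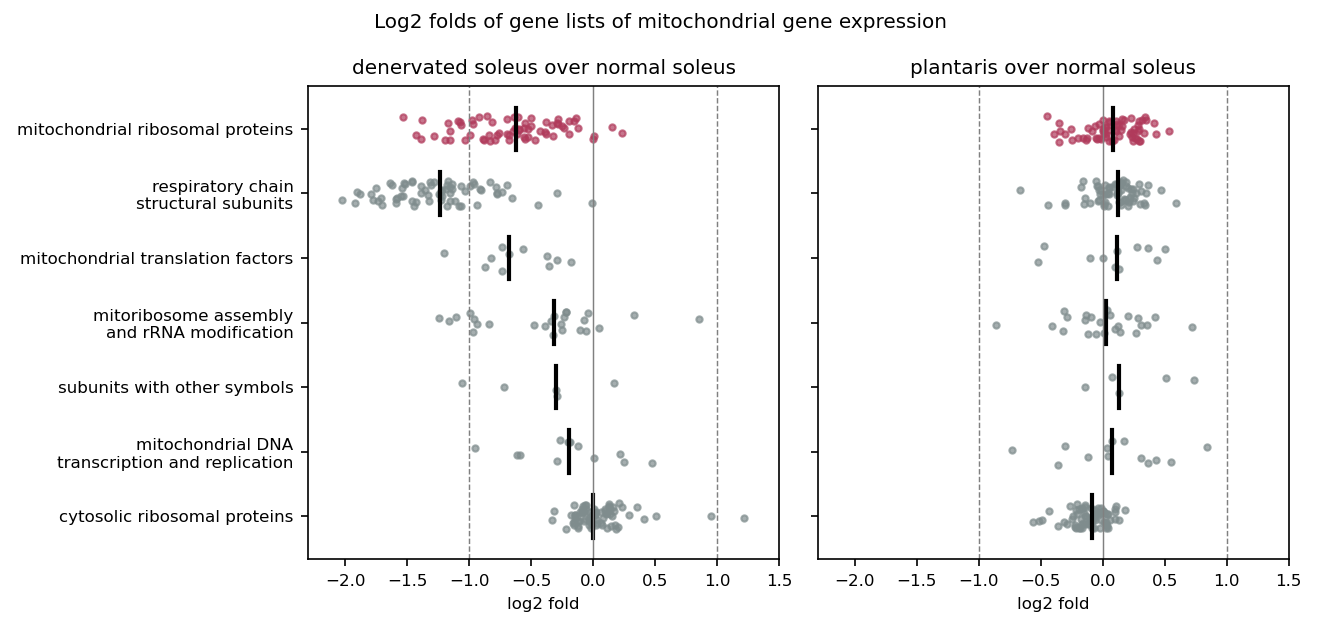
Log2 folds of each gene of 7 lists, 1 point per gene with the list's median as a black line and dashed lines at 2-fold, for denervated over normal soleus (left) and plantaris over normal soleus (right). On the left the median of the mitochondrial ribosomal proteins is -0.62. It lies between those of the respiratory chain subunits, a list that includes ATP synthase, at -1.24 and the cytosolic ribosomal proteins at 0.00. On the right all list medians lie between -0.09 and 0.13.

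The median of the mitochondrial ribosomal proteins after denervation lay between those of the respiratory chain, here with ATP synthase, and of the cytosolic ribosome. The 69 respiratory chain and ATP synthase subunits encoded in the nucleus had a median of -1.24. Of these 53 (76.8%) were at least 2-fold lower, against 13.5% of all genes. The 74 cytosolic ribosomal proteins had a median of 0.00. Of these 37 (50%) were below 0, against 48.5% of all genes, and none at least 1.5-fold lower, against 22.9%. In plantaris over normal soleus the medians were 0.13 for the respiratory chain and -0.09 for the cytosolic ribosome. With 1 array per group these differences between lists were not tested.

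Markers of other cells differed on the same array. In denervated over normal soleus, 6 of 7 fat cell markers could be measured, with a median log2 fold of 2.54 and a summed relative signal of 76.0 on the denervated and 23.5 on the normal soleus array, and the 8 fibroblast and tendon markers had a median of 0.90 and sums of 225.0 (denervated) and 94.5 (normal). The 7 macrophage markers had a median of 0.47 and sums of 30.9 (denervated) and 26.7 (normal), and the 4 blood cell markers a median of 0.24 and sums of 257.1 (denervated) and 261.8 (normal). The 5 endothelial markers had a median of -1.29 and sums of 6.47 (denervated) and 12.4 (normal). The 6 Schwann cell markers had a median of -1.10, with 2 above 0, and sums of 9.96 (denervated) and 6.97 (normal). The 10 muscle fibre markers summed to 1285 on the denervated and 2399 on the normal soleus array, with a median fold of -0.69. Their folds ran from -2.44 for Acta1, skeletal actin, to 5.15 for Actn3. Of the 10, 5 were at least 2-fold lower (13.5% of all genes) and 3 at least 2-fold higher (8.8% of all genes). The part of these cells in the members' lower signal was not tested.

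Technical agreement was close for most members. Repeat spots were read for 60 members, with median SDs of 0.06, 0.05 and 0.04 log2 units on the denervated, plantaris and normal soleus arrays, and Mrpl47 was the 1 member with an SD above 0.3. Of the 11 members with 2 probes, 9 had a second probe well above background on both arrays of the denervation comparison. All 9 second probes had folds below 0 there, and each differed from the first by at most 0.39. That largest gap was in Mrpl35, at -0.76 and -1.15. The scaling sets the size of the denervation difference. In the authors' deposited value table, which carries its own factor per array, the members' median was -0.38, but the median of all genes moved up by 0.24 with it. Relative to the median of all genes the members stood at -0.65 in both, and at -0.53 with quantile normalization and -0.52 with normexp background.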

How the data were processed

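Total RNA was labelled with Cy3 (0.1 µg input) and hybridised to 3 Agilent arrays, 1 per group, placed by source name. Per the file headers, spots were quantified by Agilent Feature Extraction 10.10.1.1, whose processed intensity is background-subtracted and detrended within the array but not normalized between arrays. The authors' deposited value table is that intensity times 1.41 for denervated soleus, 1.80 for plantaris and 1.60 for normal soleus. Per the file headers, other columns hold flags of 0 or 1.

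Log2 intensities were centred on the 75th percentile of 58717 non-control spots. Between 467 and 569 outlier spots per array were left out, repeat spots averaged, and a probe called well above background where at least 50% of its spots were. Of 30367 probes, 17997 were named through RefSeq accessions, and 64.2% to 67.0% were well above background. The brightest probe stood for a gene. A gene entered a comparison if well above background on at least 1 of its 2 arrays. A fold from 1 array is a bound, set on the other array at its own reading or at the faintest signal well above background there, whichever was higher, and was left out where it turned sign. Of 118 RefSeq symbols, 78 are protein-coding, and 12 of these were matched to no probe and not analysed here. Counts at 2-fold and 1.5-fold are rules of size, not tests. The calculation was tested on simulated data.

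Members, lists, motifs and rules were chosen with earlier results of these data known. Named were the 5 lowest and highest members per subunit and comparison, those past 2-fold, and those with disagreeing probes or bounds. Also named were a few fixed members (stalks, Mrps12, Mrpl58, Mrps30, Mrps18a), all subunits with other symbols and 3 lowest and highest of other lists. The text gives the main ones. The stalk protein Mrpl11 and Mrps36 were planned too but were not among the measured members. Those grouped by place in the ribosome (Mrpl3, Mrpl22, Mrpl45, Mrpl46 and Mrpl48) and the printed promoters were added after values were seen. The brightest and dimmest members were not ranked, since probes cannot be compared. Normexp used the spots' median signal, as no mean signal was at hand. Python 3.11.15, numpy 2.4.6, pandas 2.3.3, R 4.3.3 and limma 3.58.1 were used.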

Additional observations from a re-analysis of the deposited data

How the results depend on the processing

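In all, 10 alternatives were run: 3 other scalings, the deposited value table, normexp background (offset 50), 2 other filters, a mean over probes, flagged spots kept, and subunits by structure. No paired analysis was possible because each group has 1 array. In denervated over normal soleus the members' median stayed below 0 in all 10, from -0.64 to -0.38. In every setting 54 members were below 0. The 2 other filters could not change the members' values, since all 66 were well above background on all 3 arrays. Flagged spots kept and subunits by structure also left the members' median at -0.62 and their counts as they were. Mrpl12, Mrpl47, Mrpl58, Mrps15 and Mrps18b were at least 2-fold lower in every setting. In single settings 9.26% to 13.7% of all genes were at least 2-fold lower. Shares of all genes in every setting at once were not computed. The 2 repeat spots of Mrpl47 on normal soleus disagreed, so the size of its fold is uncertain. The deposited value table moved the medians to -0.38 for all members, -0.39 for the large and -0.32 for the small subunit, and the counts to 5 at least 2-fold and 22 at least 1.5-fold lower. It turned the plantaris medians to -0.028, -0.022 and -0.035 for all, large and small subunit members. The difference between subunit medians (large minus small) turned to 0.053 for denervated soleus with quantile normalization, and for plantaris to -0.017 with quantile normalization, -0.021 with normexp background and -0.035 with subunits by structure. In plantaris 1 member passed 1.5-fold on the low side with quantile normalization and 1 on the high side with scaling on the median. The scaling factors explain the deposited table's shift by construction, and for the other reversals the cause was not tested. The medians of all genes moved by up to 0.24 in denervated and 0.11 in plantaris. Members lowest on the denervated array numbered 50 to 64. In the main setting they were 63, against 40.5% of all genes. The number of arrays, 1 per group, limits all values.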
